A study of Mus musculus with 16 samples.

Results

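The genes of de novo fatty acid synthesis were followed in enteroids, which are epithelial cultures grown from crypts, of the mouse jejunum. The 10 genes encode ATP citrate lyase (Acly), the acetyl-CoA carboxylases (Acaca and Acacb), fatty acid synthase (Fasn), malic enzyme (Me1), the elongase Elovl6, the stearoyl-CoA desaturases (Scd1 and Scd2) and the transcription factors SREBP-1 (Srebf1) and ChREBP (Mlxipl). They were chosen by gene symbol and not by a threshold on measured values, but with earlier results of these data known. Each symbol matched 1 of the 54532 genes in the deposited count table. All 10 passed the filter on low counts in every comparison.

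In this pathway, citrate exported from mitochondria is split to acetyl-CoA in the cytosol, carboxylated to malonyl-CoA and built by fatty acid synthase into palmitate, with NADPH as the reductant. Palmitate is then elongated and desaturated before it enters membrane and storage lipids. SREBP-1c, activated by insulin and liver X receptor signaling, and ChREBP, activated by sugar phosphates, are the best known inducers of these genes in liver, fat and absorptive intestine.

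RNA of 16 cultures was sequenced after poly(A) selection, and reads were counted per gene, for 4 groups of 4 cultures. According to the methods, control and MYO5BΔIEC cultures alike were started from adult Vil1-CreERT2;Myo5b flox/flox mice, in which the villin promoter drives a tamoxifen-inducible Cre recombinase in the gut epithelium. Adult Vil1-CreERT2;Myo5b flox/G519R animals gave the MYO5B(G519R) cultures, where Cre leaves the mutant allele as the only copy of the myosin Vb motor gene. Cre was induced in culture in the MYO5BΔIEC and MYO5B(G519R) enteroids with 1 µM 4-OH-tamoxifen for 1 day, after which all groups were moved to a differentiation medium without Wnt ligands and EGF. The last group was MYO5BΔIEC enteroids that also received 100 nM Compound-1, an agonist that prefers the lysophosphatidic acid receptor LPAR5, for 2 days, in place of the vehicle given to the other MYO5BΔIEC cultures. The control labels name no treatment, and the study describes the controls in one place as flox/flox cultures given vehicle and in another as healthy littermates, so an effect of 4-OH-tamoxifen and the loss of MYO5B cannot be told apart. Each group is described as 4 cultures from 4 mice, and p-values measure the spread between these cultures.

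Depth ran from 27804968 to 40101729 counted reads per culture. In CPM, which are counts scaled to an equal library size, Myo5b itself was 189 ± 29.9 in control cultures, 150 ± 17.0 in MYO5B(G519R), 128 ± 31.0 in MYO5BΔIEC and 111 ± 26.8 with Compound-1 (SD, n = 4), and it passed the test only in treated against control (adjusted p = 0.0146; MYO5BΔIEC, adjusted p = 0.0503; MYO5B(G519R), adjusted p = 0.109; edgeR). Counts over the whole gene do not show which part a floxed allele has lost. All 10 enterocyte markers were detected in every group, and the fibroblast collagen and matrix genes Col3a1, Dcn and Lum were at 0 in all cultures. Other genes of this 6-gene fibroblast list were present at low levels, and no culture summed above 0.956 CPM. The 1 fibroblast marker tested for MYO5B(G519R) was called higher than control, at 2.39 on the log2 scale. For MYO5BΔIEC the 1 tested was at 0.35 and was not called. Control culture 1 stood apart: its mean correlation with the other controls was 0.955 against at least 0.973 for those, and its enterocyte markers summed to 3350 CPM against 12900 to 16100. Without it, more genes passed the test among all genes, 21.2% higher and 20.8% lower in MYO5BΔIEC, 24.0% higher and 22.1% lower in MYO5B(G519R) and 22.9% higher and 19.2% lower with Compound-1, and counts without it below are to be read against these shares.

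The sequences upstream of the transcription start are shown for the 5 genes with an entry that were raised in at least 1 deficient genotype without Compound-1, Fasn, Srebf1, Acly, Acaca and Acacb, and for Mlxipl, which passed no test. Of several starts, 1 is shown. RefSeq promoter entries (mouse build GRCm38.p6) matched 8 of the 10 genes with 12 start sites; Scd1 and Scd2 had no entry. The 250 bases before each start were searched on both strands for an SREBP element (TCACNCCAC), an E-box (CACGTG), an NF-Y box (CCAAT) and a GC box (GGGCGG), and matches are in capitals, with the sequence given 5′ to 3′ on the strand of the gene. The Srebf1, Acaca and Acacb windows shown lie within the annotated genes. Of the windows shown, only that of Acacb lies over an annotated exon, which is one of Acacb itself.
Fasn, chr11:120824548-120824797, minus strand: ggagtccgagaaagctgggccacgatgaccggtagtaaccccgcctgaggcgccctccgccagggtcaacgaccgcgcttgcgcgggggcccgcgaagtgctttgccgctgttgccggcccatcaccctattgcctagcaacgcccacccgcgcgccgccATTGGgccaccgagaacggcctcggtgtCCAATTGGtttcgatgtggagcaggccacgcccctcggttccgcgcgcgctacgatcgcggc
Srebf1, innermost start, chr11:60210472-60210721, minus strand: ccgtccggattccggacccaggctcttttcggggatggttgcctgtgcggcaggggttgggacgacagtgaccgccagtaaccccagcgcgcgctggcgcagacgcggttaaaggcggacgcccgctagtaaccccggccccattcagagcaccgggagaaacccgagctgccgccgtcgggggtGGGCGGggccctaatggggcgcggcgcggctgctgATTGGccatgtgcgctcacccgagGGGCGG
Acly, chr11:100528001-100528250, minus strand: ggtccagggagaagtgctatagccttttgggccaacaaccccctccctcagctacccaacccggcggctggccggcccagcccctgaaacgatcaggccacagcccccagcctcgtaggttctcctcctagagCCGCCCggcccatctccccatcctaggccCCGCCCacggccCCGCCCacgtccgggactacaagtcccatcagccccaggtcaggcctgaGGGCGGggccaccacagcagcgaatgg
Acaca, chr11:84195188-84195437, plus strand: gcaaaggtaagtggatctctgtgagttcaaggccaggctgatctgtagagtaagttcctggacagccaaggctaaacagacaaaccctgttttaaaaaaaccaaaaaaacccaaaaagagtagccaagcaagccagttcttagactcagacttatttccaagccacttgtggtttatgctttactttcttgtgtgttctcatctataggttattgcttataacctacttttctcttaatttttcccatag
Acacb, chr5:114165268-114165517, plus strand: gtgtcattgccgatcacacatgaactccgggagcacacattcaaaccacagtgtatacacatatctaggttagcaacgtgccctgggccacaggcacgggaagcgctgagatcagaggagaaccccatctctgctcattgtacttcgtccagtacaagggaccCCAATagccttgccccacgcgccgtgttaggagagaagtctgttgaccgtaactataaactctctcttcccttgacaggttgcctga
Mlxipl, outermost start, chr5:135089640-135089889, plus strand: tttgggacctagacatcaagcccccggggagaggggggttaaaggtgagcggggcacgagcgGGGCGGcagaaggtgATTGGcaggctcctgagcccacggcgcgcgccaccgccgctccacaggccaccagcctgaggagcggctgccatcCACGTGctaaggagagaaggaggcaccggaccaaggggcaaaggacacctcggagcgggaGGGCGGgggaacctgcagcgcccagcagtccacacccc

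Fasn held 3 NF-Y boxes, of which a forward and a reverse match overlap, and 2.79% of the 32851 mouse windows of this length held 3 or more. Srebf1 at this start held 1 NF-Y box and 2 GC boxes, and its other starts 2 GC boxes and 1 NF-Y box. The Acaca window held none of the 4 motifs, and that of Acacb 1 NF-Y box. Each was the only entry for its gene and lies inside it, so any start nearer the outer end of these genes was not searched. In Acly there were 4 GC boxes, and 8.47% of all windows held 3 or more. The Mlxipl window held the only E-box among the 12 (6.02% of all windows), and the only exact SREBP element lay before an inner start of the same gene (1.05% of all windows). At least 1 NF-Y box was found in 6 of the 12 windows against 33.8% of all windows, and at least 1 GC box in 5 against 32.7%. These are matches of letters, not measured binding.

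Per length, the pathway was dominated by the desaturases. The deposited FPKM, which divide reads by gene length and library size, put Scd2 first in every group, from 250 ± 30.5 in control to 409 ± 44.5 in MYO5B(G519R) (SD, n = 4). Scd1 was second in every group, at 121 ± 22.8 in control. Between them and Acaca, control levels of Acly, Mlxipl, Me1, Elovl6, Srebf1 and Fasn lay close together, from 38.3 down to 20.4 FPKM, and each neighbor in that order overlapped the next in range. Fasn ranked 8 of 10 in control, 3 in both MYO5BΔIEC groups and 4 in MYO5B(G519R). Acaca and Acacb were lowest throughout, at 3.31 ± 0.281 and 0.151 ± 0.0637 FPKM in control, and their ranges overlapped neither each other nor the gene above in any group.

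In MYO5BΔIEC enteroids, 4 of the 10 genes were higher than in control at an adjusted p under 0.05 and none was lower (edgeR's quasi-likelihood test on 17951 genes; 13.5% of all genes tested were higher and 13.8% lower). The 4 were Fasn, Acaca, Acacb and Srebf1. In MYO5B(G519R) enteroids 6 were higher and none was lower, the same 4 with Acly and Scd2 (17829 genes; 13.1% higher, 13.7% lower). In Compound-1-treated MYO5BΔIEC enteroids 4 were higher and none was lower, namely Fasn, Srebf1, Acaca and Elovl6 (17937 genes; 15.7% higher, 13.7% lower). The 3 comparisons share the 4 control cultures and are not independent. In bulk RNA, a different number of cells of a type and a different amount of RNA per cell cannot be told apart. Medians over the 10 genes were 0.37 for MYO5BΔIEC, 0.58 for MYO5B(G519R) and 0.52 with Compound-1 on the log2 scale, against -0.01, -0.05 and -0.05 over all genes tested.

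**Figure D1:**
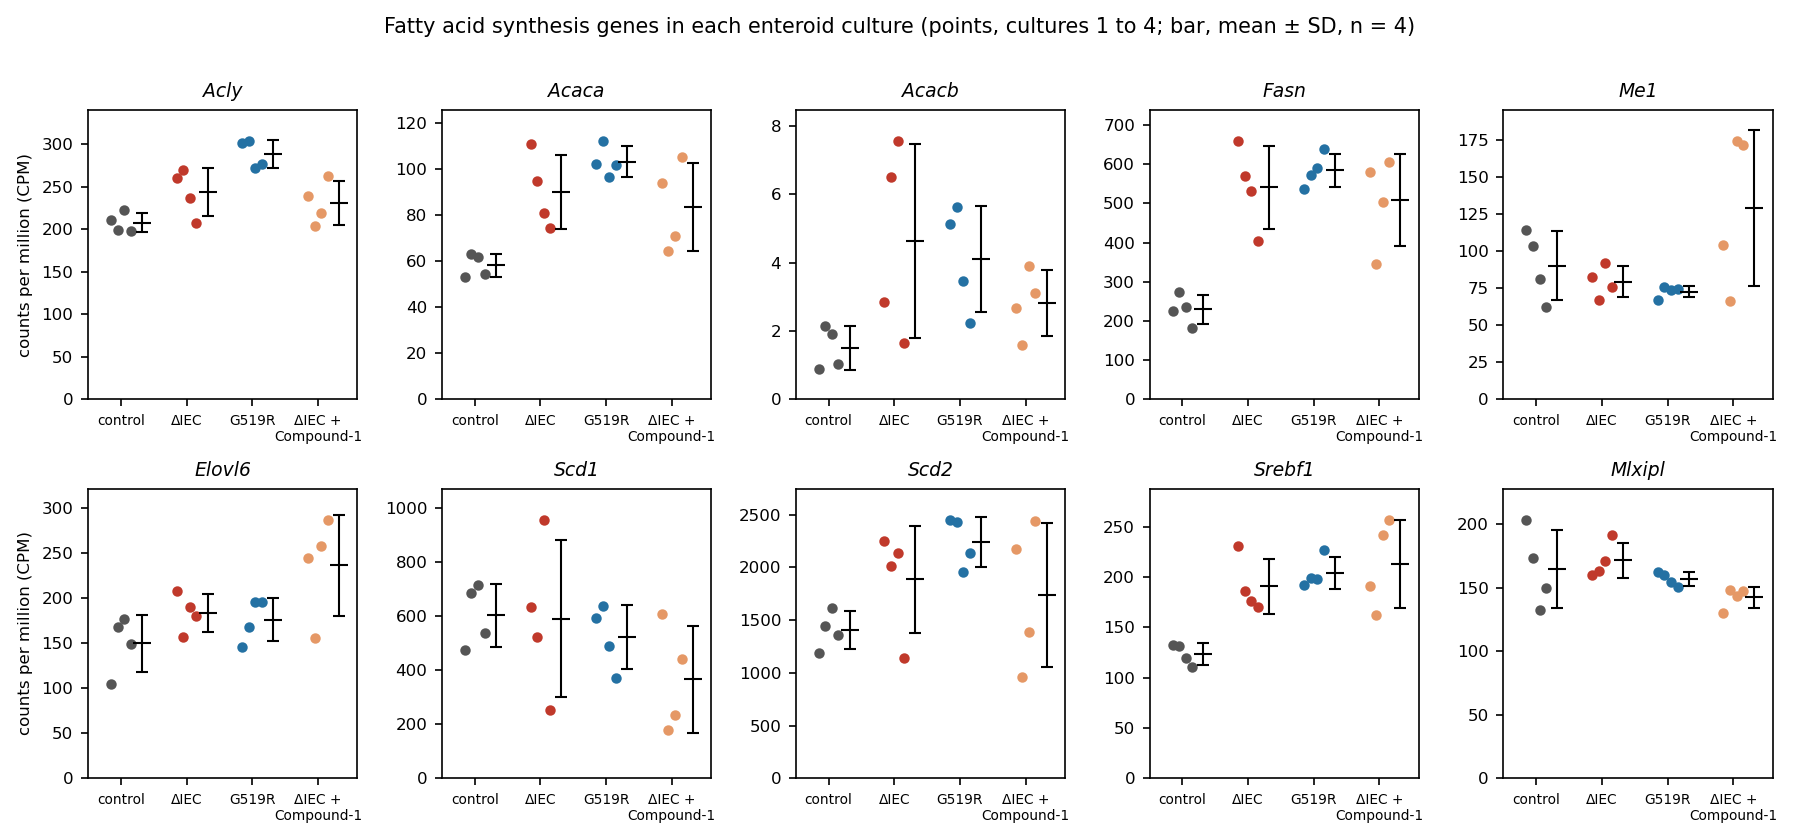
CPM of the 10 genes in each of the 16 cultures (vertical axes start at 0 and differ between panels; points, cultures 1 to 4 of each group; bar, mean ± SD, n = 4). The 12 MYO5B-deficient cultures lie above all 4 controls for Fasn, Srebf1 and Acaca, and each deficient group overlaps control for Me1, Scd1 and Mlxipl.

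Fasn, the multienzyme that makes palmitate, was the gene whose rise was clearest. It lies on chromosome 11 (GRCm38, 120805846 to 120824547, minus strand; ENSMUSG00000025153), and no other annotated gene overlaps it. The controls gave 225, 275, 235 and 183 CPM for cultures 1 to 4, and the MYO5BΔIEC cultures 660, 568, 531 and 403. MYO5B(G519R) cultures gave 537, 573, 591 and 637 CPM, and treated MYO5BΔIEC cultures 581, 346, 504 and 605. Every MYO5B-deficient culture was thus above every control, with the lowest at 346 CPM and the highest control at 275. The log2 fold change was 1.24 (SE 0.19, adjusted p = 0.00216) in MYO5BΔIEC, 1.35 (SE 0.15, adjusted p = 0.00181) in MYO5B(G519R) and 1.15 (SE 0.21, adjusted p = 0.00541) with Compound-1. As a share of the reads on all 10 genes, Fasn took 6.51% to 8.46% in control and 11.6% to 15.6% in the other groups.

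Acaca encodes the cytosolic acetyl-CoA carboxylase, which makes the malonyl-CoA that Fasn uses (chromosome 11, 84129672 to 84401651, plus strand; ENSMUSG00000020532). Its control values were 53.2, 63.2, 61.8 and 54.2 CPM. In MYO5BΔIEC cultures it was at 111, 94.5, 80.7 and 74.4 CPM, in MYO5B(G519R) at 102, 112, 96.4 and 102 CPM, and in treated cultures at 93.9, 64.4, 70.9 and 105 CPM. No deficient culture reached down into the control range, although treated culture 2 was only just above it. Fitted log2 fold changes were 0.64 (SE 0.15, adjusted p = 0.0121) in MYO5BΔIEC, 0.83 (SE 0.11, adjusted p = 0.00194) in MYO5B(G519R) and 0.52 (SE 0.17, adjusted p = 0.0444) with Compound-1. Acaca is the longest of these genes (17074 bases), and with the length trend of the fold changes taken out it kept the call only in MYO5B(G519R), at 0.26 (adjusted p = 0.311) in MYO5BΔIEC and 0.15 (adjusted p = 0.568) with Compound-1. The gene Gm11437 lies within it on the other strand with 25.7% as many counts; the sources used here do not say whether counting used strand, so such reads cannot be told apart.

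Acacb encodes the carboxylase at the outer mitochondrial membrane, whose malonyl-CoA restrains fatty acid oxidation (chromosome 5, 114146535 to 114250761, plus strand; ENSMUSG00000042010). It was rare, with 28 to 217 reads per culture. Controls gave 0.878, 2.16, 1.92 and 1.04 CPM, MYO5BΔIEC 2.85, 6.50, 7.57 and 1.65 CPM, MYO5B(G519R) 5.13, 5.62, 3.48 and 2.23 CPM and treated cultures 2.68, 1.60, 3.90 and 3.11 CPM. The MYO5BΔIEC range overlapped control through culture 4, while all MYO5B(G519R) cultures were above it. On the log2 scale, the difference from control was 1.63 (SE 0.49, adjusted p = 0.0316) in MYO5BΔIEC, 1.45 (SE 0.38, adjusted p = 0.0204) in MYO5B(G519R) and 0.91 (SE 0.39, adjusted p = 0.0994) with Compound-1. The MYO5BΔIEC call was lost without control 3, control 4, MYO5BΔIEC 2 or MYO5BΔIEC 3 (adjusted p = 0.0573, 0.0889, 0.0939 and 0.0934). The MYO5B(G519R) call was lost without control 4, MYO5B(G519R) 1 or MYO5B(G519R) 2 (adjusted p = 0.0608, 0.0589 and 0.0643). Acaca and Acacb transcripts share no stretch of 50 bases, so reads of that length fit only one of them.

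Acly, which cleaves cytosolic citrate to acetyl-CoA, rose in MYO5B(G519R) enteroids (chromosome 11, 100476353 to 100528000, minus strand; ENSMUSG00000020917). The controls gave 211, 199, 222 and 198 CPM, and the MYO5B(G519R) cultures 302, 304, 271 and 276, with no overlap. The MYO5BΔIEC cultures, at 260, 270, 237 and 207 CPM, and the treated ones, at 239, 204, 219 and 263 CPM, reached into the control range. The log2 fold change was 0.47 (SE 0.11, adjusted p = 0.0104) in MYO5B(G519R), 0.24 (SE 0.14, adjusted p = 0.217) in MYO5BΔIEC and 0.15 (SE 0.14, adjusted p = 0.428) with Compound-1.

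Me1, the cytosolic malic enzyme that supplies NADPH, passed no test (chromosome 9, 86581371 to 86695953, minus strand; ENSMUSG00000032418). Controls were spread from 62.6 to 114 CPM (114, 103, 81.5 and 62.6), and MYO5BΔIEC cultures lay within that range at 82.5, 67.5, 92.2 and 76.2 CPM. MYO5B(G519R) cultures lay within it as well, at 67.1, 75.7, 73.6 and 74.3 CPM. Treated cultures 3 and 4, at 175 and 172 CPM, were above every other culture of the study, while treated cultures 1 and 2 were at 105 and 66.4 CPM. The log2 fold change against control was -0.18 (SE 0.19, adjusted p = 0.525) in MYO5BΔIEC, -0.32 (SE 0.17, adjusted p = 0.206) in MYO5B(G519R) and 0.52 (SE 0.30, adjusted p = 0.225) with Compound-1. Treated cultures 3 and 4 also had the highest summed goblet cell markers of all cultures, at 5990 and 4230 CPM against 1790 to 2550 in the others; the part of these cells in the Me1 values was not tested.

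Among the enzymes that finish the chain, Scd2 was the most abundant and rose in MYO5B(G519R) enteroids (chromosome 19, 44293676 to 44306864, plus strand; ENSMUSG00000025203). It introduces the double bond that turns stearate into oleate. Its controls gave 1183, 1447, 1615 and 1363 CPM and its MYO5B(G519R) cultures 2452, 2426, 1956 and 2135. MYO5BΔIEC cultures gave 2252, 2008, 2139 and 1144 CPM, so that 3 lay above all controls and culture 4 below them. Treated cultures were spread as well. Cultures 1 and 4, at 2173 and 2437 CPM, lay above all controls, culture 3 at 1388 within their range and culture 2 at 964 below it. Fitted log2 fold changes were 0.68 (SE 0.15, adjusted p = 0.0105) in MYO5B(G519R), 0.44 (SE 0.22, adjusted p = 0.175) in MYO5BΔIEC and 0.31 (SE 0.28, adjusted p = 0.425) with Compound-1. Without MYO5BΔIEC culture 4 the MYO5BΔIEC value was 0.62 (adjusted p = 0.0293), and with all 4 groups in 1 fit the MYO5B(G519R) call was lost (adjusted p = 0.0583).

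Scd1, the desaturase that dominates in liver and fat, passed no test (chromosome 19, 44394451 to 44407709, minus strand; ENSMUSG00000037071). It was at 474, 688, 715 and 539 CPM in control, 633, 524, 958 and 251 CPM in MYO5BΔIEC, 594, 639, 489 and 371 CPM in MYO5B(G519R) cultures, and 610, 181, 234 and 444 CPM in treated cultures. All groups overlapped, and the coefficient of variation was 49.4% in MYO5BΔIEC and 53.9% in treated cultures. The log2 fold change against control was -0.21 (95% CI -0.66 to 0.24) in MYO5B(G519R), -0.02 (-0.76 to 0.71) in MYO5BΔIEC and -0.72 (-1.49 to 0.05) with Compound-1, with adjusted p of 0.483, 0.968 and 0.143. Without treated culture 1 the last was -1.08 (adjusted p = 0.0343). Scd1 and Scd2 share 145 stretches of 50 bases, 2.68% of those in Scd2, so few positions could give reads that fit both.

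Elovl6, which extends palmitate to stearate, rose in treated enteroids (chromosome 3, 129532355 to 129638495, plus strand; ENSMUSG00000041220). Controls gave 105, 168, 177 and 149 CPM, and treated cultures 244, 156, 257 and 287, with culture 2 within the control range. The MYO5BΔIEC cultures gave 208, 157, 190 and 180 CPM, and the MYO5B(G519R) cultures 146, 168, 196 and 195. On the log2 scale, the difference from control was 0.66 (SE 0.22, adjusted p = 0.0476) in treated enteroids, 0.30 (SE 0.18, adjusted p = 0.232) in MYO5BΔIEC and 0.23 (SE 0.17, adjusted p = 0.350) in MYO5B(G519R). The call in treated enteroids was lost in 6 of the 8 fits that left out 1 culture, without control 2, 3 or 4 or treated culture 1, 3 or 4 (adjusted p = 0.0694 to 0.137), as was that of Acaca in 5 of 8, without control 2, 3 or 4 or treated culture 1 or 4 (adjusted p = 0.0769 to 0.144).

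Srebf1, which encodes the SREBP-1 precursor that SCAP escorts out of the endoplasmic reticulum, rose in all 3 deficient groups (chromosome 11, 60199089 to 60222581, minus strand, ENSMUSG00000020538). Controls lay at 133, 131, 119 and 110 CPM. MYO5BΔIEC cultures gave 231, 186, 176 and 171 CPM, MYO5B(G519R) cultures 192, 199, 198 and 227, and treated cultures 191, 163, 242 and 257. No deficient culture fell within the control range. The log2 fold change was 0.64 (SE 0.14, adjusted p = 0.00896) in MYO5BΔIEC, 0.72 (SE 0.11, adjusted p = 0.00284) in MYO5B(G519R) and 0.79 (SE 0.17, adjusted p = 0.00898) with Compound-1. Gene counts do not separate the SREBP-1a and SREBP-1c transcripts. Rai1 overlaps Srebf1 on the other strand with 28.9% as many counts, and without strand in the counting their shared reads cannot be told apart.

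Mlxipl, which encodes ChREBP, passed no test (chromosome 5, 135089890 to 135138382, plus strand; ENSMUSG00000005373). It was at 204, 174, 132 and 150 CPM in control, 161, 164, 171 and 192 CPM in MYO5BΔIEC, 163, 161, 155 and 151 CPM in MYO5B(G519R) cultures, and 130, 148, 144 and 148 CPM in treated cultures. Fitted log2 fold changes were -0.07 (95% CI -0.38 to 0.24) in MYO5B(G519R), 0.06 (-0.28 to 0.41) in MYO5BΔIEC and -0.21 (-0.56 to 0.14) with Compound-1. Adjusted p was 0.754, 0.791 and 0.341, and all 3 groups overlapped control.

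Cultures were also compared by rank alone. In MYO5BΔIEC, 3 of the 10 genes (Fasn, Acaca and Srebf1) were above control in all cultures and 0 below, against 13.3% above and 13.6% below among all genes tested. In MYO5B(G519R) 6 were above and 0 below (13.6% and 13.8% of all genes), and in treated enteroids the same 3 as in MYO5BΔIEC were above and 0 below (14.3% and 13.6%). Leaving out control culture 1 left 4, 6 and 4 of the 10 genes past the test in the 3 comparisons, while among all genes the number called went from 4910 to 7474, from 4778 to 8146 and from 5275 to 7459. Marker lists of other cell states also differed. Stem cell markers summed to 2250 to 6290 CPM in control and 821 to 1970 in MYO5BΔIEC, where 1 of 5 passed the test and was lower. Gene by gene, 3 of these 5 lay above control in MYO5BΔIEC, with a median log2 fold change of 0.02. Proliferation markers summed to 1540 to 1890 CPM in control and 1060 to 1330 in MYO5BΔIEC, where 3 of 5 were lower. In MYO5B(G519R) the stem cell and proliferation sums were 1160 to 2500 and 1250 to 1580 CPM, with 1 of 5 and 2 of 5 lower. There too, 3 of the 5 stem cell markers lay above control (median 0.30). Paneth cell markers summed to 6650 to 7740 CPM in controls 2 to 4, 3240 in control 1 and 3090 to 4650 in the deficient cultures, with 2 of 6 lower in both genotypes. Of all genes, 13.8% were lower in MYO5BΔIEC and 13.7% in MYO5B(G519R). Mitochondrial transcripts took 6.41% to 10.4% of counts in control and 3.79% to 6.63% in the deficient cultures. Adipocyte markers summed to 12.8 to 20.3 CPM in control and 24.2 to 48.2 in MYO5BΔIEC, with 1 of the 6 genes reaching 10 counts and Adipoq and Lep at or near 0. The part of these differences in the fatty acid synthesis genes was not tested.

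**Figure D2:**
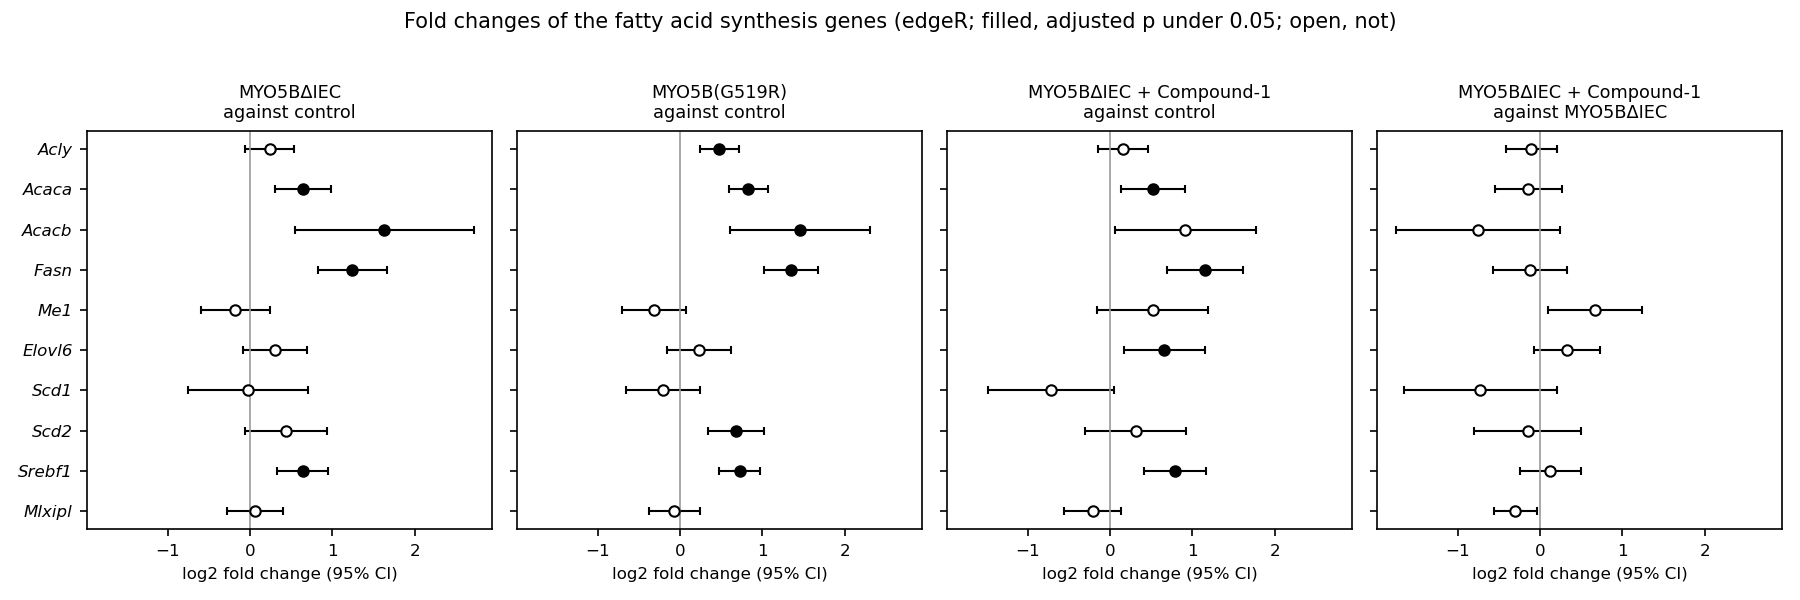
Log2 fold change with its 95% confidence interval (edgeR; 4 against 4 cultures) for the 10 genes in 4 comparisons; filled points have an adjusted p under 0.05 over all genes tested. Fasn, Acaca and Srebf1 are filled in all 3 comparisons with control, Mlxipl, Me1 and Scd1 in none, and no point is filled for treated against untreated MYO5BΔIEC.

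The comparison of treated with untreated MYO5BΔIEC enteroids asked whether Compound-1 changed these genes. None of the 10 passed the test, nor did any other of the 18037 genes (0%) by edgeR, where 1355 genes had an unadjusted p under 0.05; DESeq2 called 91 genes, 0 of them among the 10. Fasn differed by -0.12 on the log2 scale (95% CI -0.57 to 0.33) and Srebf1 by 0.13 (-0.25 to 0.50), so that both intervals include 0. Acaca differed by -0.14 (-0.54 to 0.26), and Acacb by -0.75 with the interval -1.75 to 0.25. Me1 was higher by 0.67 (0.09 to 1.24) and Mlxipl lower by 0.30 (fold change -0.30, interval -0.56 to -0.04), each with an unadjusted p near 0.027 (0.0264 and 0.0271) and an adjusted p of 0.608. Mlxipl was the only one of the 10 whose cultures did not overlap, with the highest treated culture at 148 and the lowest untreated at 161 CPM. The share of all genes without overlap was not counted for this comparison, so no result is read from that.

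Between the deficient genotypes, MYO5B(G519R) and MYO5BΔIEC without Compound-1, none of the 10 genes passed the test and 1 gene of 17943 did (0.00557%; 772 genes had an unadjusted p under 0.05, and DESeq2 called 4, 0 of them among the 10). The calls of Acly and Scd2 in MYO5B(G519R) alone are therefore not a shown difference between genotypes: Acly was higher by 0.24 in MYO5B(G519R) than in MYO5BΔIEC (95% CI -0.02 to 0.50) and Scd2 by 0.25 (-0.19 to 0.68), both with an adjusted p of 0.838.

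Ratios within a culture do not depend on library size. The Scd2 to Scd1 ratio of FPKM was 2.21, 1.86, 2.00 and 2.24 in control cultures, 3.66, 3.37, 3.55 and 5.11 in MYO5B(G519R), 3.16, 4.74, 5.26 and 4.87 in treated and 3.16, 3.40, 1.98 and 4.04 in MYO5BΔIEC cultures. It was above all controls in every MYO5B(G519R) and treated culture, at 1.86-fold and 2.13-fold of control. The exact two-sided permutation p was 0.0286 for both, the smallest that 4 against 4 cultures allow, and 0.114 after adjustment over the 8 ratio comparisons. In MYO5BΔIEC, where culture 3 lay within the control range, the fold was 1.47 (exact permutation p = 0.114, adjusted p = 0.183), and treated against untreated it was 1.46 (exact permutation p = 0.0857, adjusted p = 0.183). The Acacb to Acaca ratio was 0.0447 ± 0.0154 in control, 0.0702 ± 0.0240 in MYO5B(G519R), 0.0933 ± 0.0615 in MYO5BΔIEC and 0.0612 ± 0.0246 with Compound-1 (SD, n = 4). All these groups overlapped, with exact permutation p from 0.114 to 0.514 in the 4 comparisons.

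**Figure D3:**
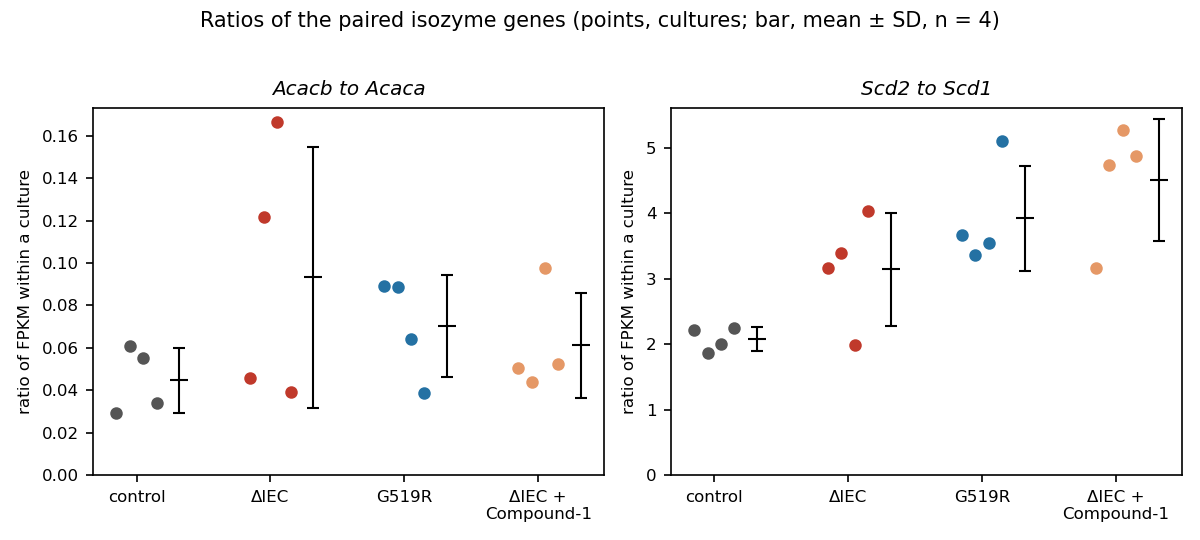
Ratio of FPKM within each culture for the carboxylase pair (left, Acacb to Acaca) and the desaturase pair (right, Scd2 to Scd1); points are cultures 1 to 4 of each group and bars mean ± SD (n = 4), with axes from 0. The Scd2 to Scd1 ratio lies between 1.86 and 2.24 in control and at 3.16 or more in every MYO5B(G519R) and treated culture.

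Within groups, the cultures also differed in a common direction. Deviations of log2 CPM (with 0.1 CPM added) from the group mean were compared with those of Fasn over the 16 cultures, for 9 relations. Acaca had r = 0.82 and rho = 0.78 (within-group permutation p = 0.00229 and 0.00375, not adjusted), Scd2 r = 0.79 and rho = 0.66 (permutation p = 0.00884 and 0.0209) and Srebf1 r = 0.77 and rho = 0.72 (permutation p = 0.00692 and 0.00918). The cultures whose Fasn deviation lay farthest from the median deviation of all 16 were treated culture 2 and MYO5BΔIEC culture 4, both low. Without them r was 0.71 for Acaca, 0.50 for Scd2 and 0.62 for Srebf1. For Acly and Scd1 the relation rested on those cultures, with r going from 0.67 to 0.36 and from 0.65 to 0.30. Elovl6 had r = 0.61 and rho = 0.74 (within-group permutation p = 0.0453 and 0.00374, not adjusted). Its r was 0.47 without those cultures and 0.73 without control 1. Me1 had r = 0.62 (0.41 without those cultures) and Acacb 0.44 (0.02). Mlxipl went the other way, at r = -0.23 (permutation p = 0.447). All points share their library's size and quality, and the part of these in r was not tested. By r among the 13545 genes compared, Acaca ranked 10, Scd2 26, Srebf1 46, Acly 218 and Scd1 285. Me1 ranked 383, Elovl6 400, Acacb 1467 and Mlxipl 9689. Among the genes most like Fasn by this measure were Ksr1 (r = 0.91), Gramd4 (0.88), Kremen2 (0.84) and Nid1 (0.84).

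**Figure D4:**
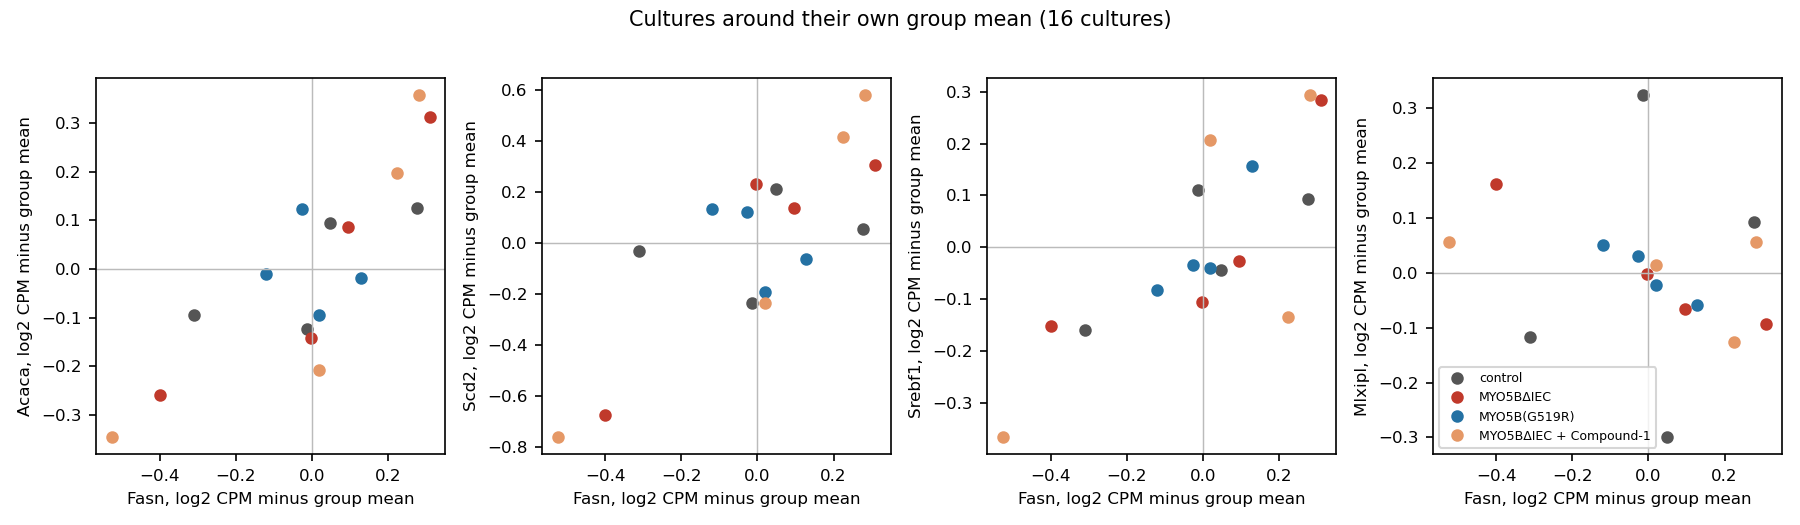
Deviation of each culture from its own group mean in log2 CPM, Fasn on the horizontal axis and Acaca, Scd2, Srebf1 or Mlxipl on the vertical axis (16 points, colored by group). Treated culture 2 and MYO5BΔIEC culture 4 lie at the lower left for Acaca, Scd2 and Srebf1 (r = 0.82, 0.79 and 0.77), and Mlxipl shows no such arrangement (r = -0.23).

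The neighboring pathways divided. Of 12 genes of glycerolipid synthesis from acyl-CoA, 5 were higher and 0 lower in MYO5BΔIEC and 4 higher and 0 lower in MYO5B(G519R), with medians of 0.39 and 0.10 on the log2 scale. The shares of all genes were 13.5% and 13.1% higher and 13.8% and 13.7% lower. Dgat2, the last enzyme of triglyceride synthesis that uses newly made fatty acids, had mean CPM of 55.0 in control, 120 in MYO5B(G519R), 144 in MYO5BΔIEC and 168 with Compound-1 (log2 fold change 1.13, 1.39 and 1.61, adjusted p = 0.00204, 0.00171 and 0.00398). The phosphatidate phosphatase gene Lpin1 was higher in MYO5BΔIEC and MYO5B(G519R) (1.00 and 0.76, adjusted p = 0.0428 and 0.0338) and at 0.23 in treated enteroids (adjusted p = 0.544). With the trend on gene length removed, 2 of the 12 were higher in MYO5B(G519R), as were 2251 of all 17829 genes. Without control 1 the counts among the 12 were 5 higher and 1 lower in MYO5BΔIEC and 5 higher and 2 lower in MYO5B(G519R).

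Of 20 tested regulators of SREBP-1c, ChREBP and acetyl-CoA carboxylase, 3 were higher and 0 lower in MYO5BΔIEC and 4 higher and 1 lower in MYO5B(G519R). The 3 of 20 lie near the share of all genes that were higher (13.5%), and for MYO5B(G519R) the shares of all genes were 13.1% higher and 13.7% lower. Without control 1 the counts became 6 and 0, and 12 and 4, where 21.2% and 24.0% of all genes were higher. Srebf2, the SREBP of cholesterol synthesis, averaged 216 CPM in control, 364 in MYO5BΔIEC cultures and 390.0 in MYO5B(G519R) ones (log2 fold change 0.76 and 0.85, adjusted p = 0.00597 and 0.00308). Scap, the escort of SREBP proteins, went from 40.6 to 70.2 and 68.8 CPM (0.80 and 0.76, adjusted p = 0.0133 and 0.0138). Mbtps2, a protease that releases SREBP, was lower in MYO5B(G519R) (-0.52, adjusted p = 0.0295) and at -0.36 in MYO5BΔIEC (adjusted p = 0.139).

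In cholesterol synthesis, 2 of 18 genes were higher and 0 lower in either deficient genotype, with medians of -0.19 and -0.15. The 2 of 18 lie near the shares of all genes that were higher (13.5% and 13.1%). Without control 1, 6 and 8 of the 18 were lower, beside 2 and 3 higher, where 20.8% and 22.1% of all genes were lower.

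Of 8 ChREBP-responsive glycolytic and fructolytic genes, 0 were higher in MYO5BΔIEC, MYO5B(G519R) or treated enteroids. Lower were 1, 3 and 4 of them in that order, with medians of -0.38, -0.56 and -0.88. The 1 of 8 in MYO5BΔIEC lies near the share of all genes that were lower (13.8%). That share was 13.7% both in MYO5B(G519R) and in treated enteroids. The glucose-6-phosphatase gene G6pc averaged 40.2 CPM in control, 16.3 in MYO5BΔIEC cultures, 10.6 in MYO5B(G519R) cultures and 7.68 with Compound-1 (-1.30, -1.93 and -2.39, adjusted p = 0.0256, 0.00492 and 0.00984). Enterocyte markers summed to 12900 to 16100 CPM in controls 2 to 4, 3350 in control 1, 5490 to 8770 in MYO5B(G519R), 6220 to 12500 in MYO5BΔIEC and 5380 to 7760 with Compound-1. Taken singly, 6 of these 10 markers lay above control in MYO5BΔIEC, where 2 were called higher and 0 lower (median 0.62). MYO5B(G519R) had 5 above and 5 below, with 1 called each way (median 0.004). Treated enteroids had 4 above and 6 below, with 2 called higher and 3 lower (median -0.48). The part of enterocyte markers in the values of the 8 ChREBP-responsive genes was not tested. Without control 1, 4 of the 8 were lower and 1 higher in MYO5BΔIEC and in MYO5B(G519R) alike.

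Of 9 tested genes of mitochondrial fatty acid synthesis and lipoylation, a separate pathway that makes lipoic acid, 4 were lower and 0 higher in MYO5BΔIEC and in MYO5B(G519R). Among all genes, 13.8% and 13.7% were lower and 13.5% and 13.1% higher, in that order. Without control 1 the counts were 4 lower and 1 higher in both. Lipt1, the lipoyl transferase, was at -0.97 (adjusted p = 0.00385) and -0.82 (adjusted p = 0.0167). Cbr4, a subunit of the ketoreductase, was at -0.64 in MYO5BΔIEC (adjusted p = 0.00710), and Ndufab1, the mitochondrial acyl carrier protein, at -0.61 in MYO5B(G519R) (adjusted p = 0.0109). The cytosolic enzyme Fasn thus rose in the same cultures in which genes of its mitochondrial counterpart were lower.

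Among 15 tested genes of other elongation and desaturation steps, 1 was higher and 4 were lower in MYO5BΔIEC and 0 and 3 in MYO5B(G519R). Of all genes, 13.5% were higher and 13.8% lower in MYO5BΔIEC, and 13.1% and 13.7% in MYO5B(G519R). Without control 1 the counts among the 15 were 1 and 5 in both. The dehydratases Hacd1 (-1.28, adjusted p = 0.00140) and, near 1 CPM, Hacd4 (1.07, adjusted p = 0.0186) moved apart in MYO5BΔIEC, and the ketoreductase Hsd17b12 was lower there (-0.55, adjusted p = 0.0109). In MYO5B(G519R), Hacd1 was at -0.71 (adjusted p = 0.00638) and Hacd2 at -0.59 (adjusted p = 0.0144). Of the 8 genes that supply citrate, acetyl-CoA and NADPH, 0 passed the test in MYO5BΔIEC, where DESeq2 called 3 (5956 of all 17909 genes). In MYO5B(G519R) 1 was higher and 1 lower, each near the share of all genes (13.1% higher and 13.7% lower). Without control 1, 1 was higher and 3 lower in MYO5BΔIEC, and 2 higher and 2 lower in MYO5B(G519R). With all controls, the transketolase gene Tkt was higher in MYO5B(G519R) (0.48, adjusted p = 0.0170) and the malate dehydrogenase gene Mdh1 lower (-0.81, adjusted p = 0.0235).

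**Figure D5:**
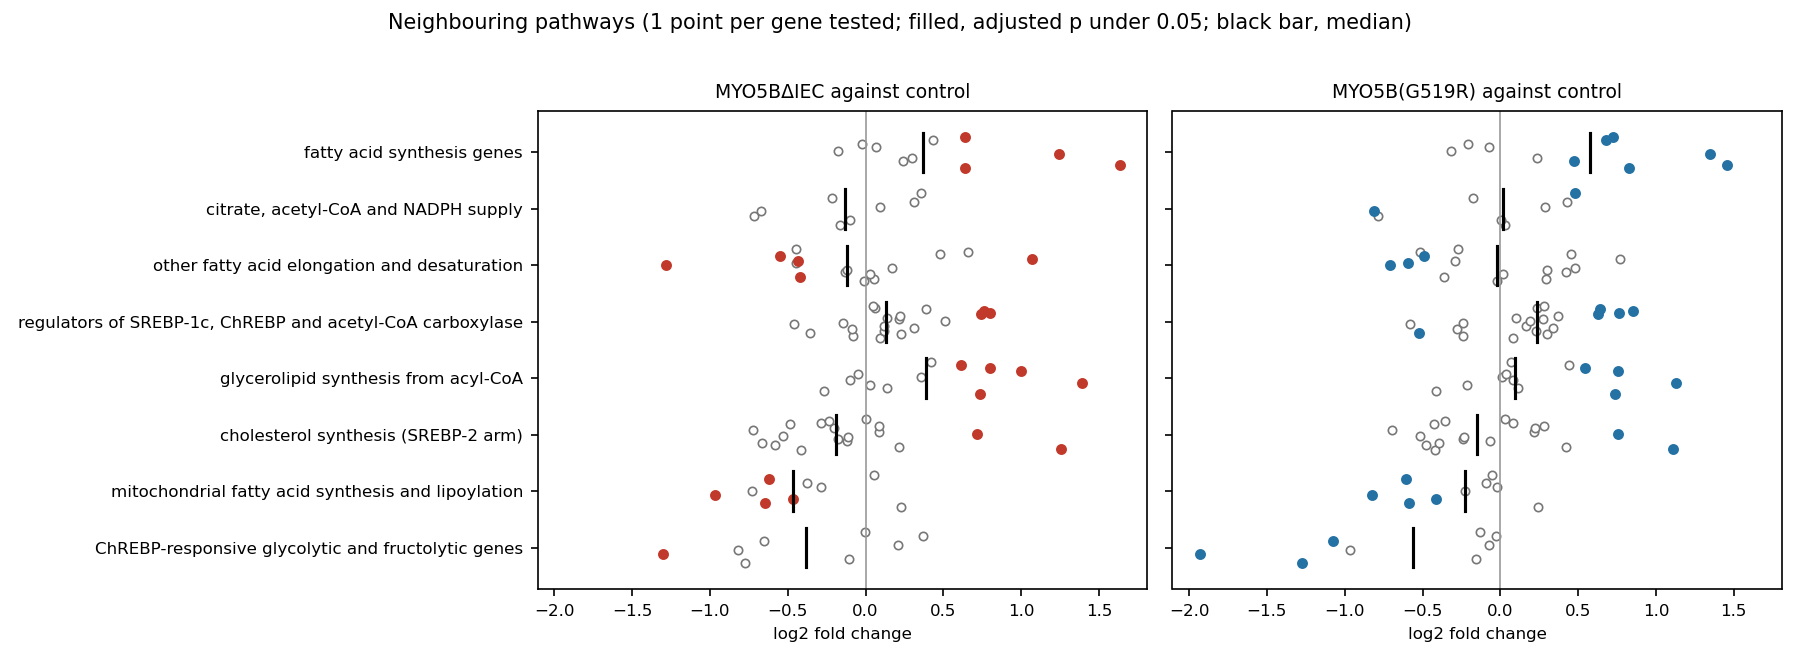
Log2 fold change against control of every gene tested in the fatty acid synthesis list and 7 neighboring lists, for MYO5BΔIEC (left) and MYO5B(G519R) (right); filled points have an adjusted p under 0.05 and black bars are list medians. The fatty acid synthesis genes have medians of 0.37 and 0.58, and the ChREBP-responsive genes of -0.38 and -0.56.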

How the data were processed

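Bulk RNA-seq of 16 enteroid cultures was analyzed. Per the labels, the authors' processing used STAR 2.5, TopHat, HTSeq 0.6.1 and DESeq2 with GRCm38/mm10; the handling of strand and of reads with several positions is not given in the sources used here. The deposited counts are whole reads per gene. The deposited FPKM were made by the authors as counts divided by gene length and by a library size that is 0.871 to 1.08 times the sum of counts.

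Tests on counts used edgeR 4.0.16 in R 4.3.3, with TMM library sizes, genes that reached 10 counts in 2 or more of the 8 cultures, 2 groups at a time, quasi-likelihood F test, Benjamini-Hochberg adjustment over all genes tested, threshold 0.05. CPM use TMM library sizes. Ratios were tested by exact permutation (70 splits), and within-group relations by 100000 permutations within groups. Alternatives were DESeq2 1.42.0, its size factors in edgeR, mitochondrial genes left out of library sizes, no filter, filterByExpr, all groups in 1 fit, replicate number as a block, the trend on gene length removed, limma 3.58.1 on log2(FPKM + 1) and log2(FPKM + 0.1), and each culture left out in turn. Depth was 27804968 to 40101729 counts per culture, and an absent gene has an upper limit of 3 counts.

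The genes and lists were chosen with earlier results of these data known. Of each list, up to 2 genes with the largest rise and 2 with the largest fall among those past the threshold in MYO5BΔIEC or MYO5B(G519R) against control are named, and those of the 5 genes most like Fasn, except for some genes that are not reported here. The edgeR script was tested on simulated counts.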

Additional observations from a re-analysis of the deposited data

Results flagged for a closer look

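Each group of 4 cultures was searched for a culture whose gap to the nearest of the others was large against the group's range (Dixon's test at its 95% critical value), for the 10 genes, the 2 ratios, the marker sums, the pathway genes named and Myo5b. Chance marks about 1 in 20 groups. Of 152 groups 12 held such a culture, and of the 40 for the fatty acid synthesis genes 0 did.

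Of the ratios, Acacb to Acaca was 0.0976 in treated culture 3 against 0.0439 to 0.0525 in the other treated cultures, and Scd2 to Scd1 was 5.11 in MYO5B(G519R) culture 4 against 3.37 to 3.66.

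MYO5B(G519R) culture 3 was farthest from its group in 4 measures. These were summed Paneth cell markers of 4060 CPM (others 3113 to 3260), summed proliferation markers of 1250 CPM (others 1551 to 1576), Hacd4 at 2.72 CPM (others 1.48 to 1.63) and Lipt1 at 3.64 CPM (others 6.06 to 6.42).

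Control culture 1 was farthest in 3 measures, with summed tuft cell markers of 64.9 CPM (others 19.7 to 25.4), Ndufab1 at 106 CPM (others 145 to 151) and Scap at 58.4 CPM (others 34.0 to 35.6). MYO5BΔIEC culture 3 had Mdh1 at 496 CPM (others 336 to 354) and summed fibroblast markers of 0.956 CPM (others 0.389 to 0.450). Control culture 3 had Tkt at 720.1 CPM (others 632 to 643).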

How the results depend on the processing

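Fasn and Srebf1 passed the test against control in all 3 deficient groups under all 10 alternatives and in all 8 fits without 1 culture. The count of the 10 genes past the threshold in MYO5BΔIEC went from 4 to 2 with the trend on gene length removed, where Acaca and Acacb were lost, and to 3 in both limma fits, where Acacb was. In treated against control it went from 4 to 2 with the replicate block, with the trend on gene length removed, and in limma fits of FPKM with 1 or 0.1 added, each time without Acaca and Elovl6; without 1 culture it ran from 2 to 4. Without 1 culture it ran from 3 to 5 in MYO5BΔIEC, and in MYO5B(G519R) it ran from 5 to 6. The replicate block left 4 and 6 in the other comparisons with control; same-numbered cultures had correlated deviations of -0.193 to 0.117 against control. Between the genotypes these were 0.102, 0.0342, 0.302 and 0.420, with 3 of 4 cultures closest to their own number, and the block raised the genes with an unadjusted p under 0.05 from 772 to 2532 and left 1 called. No comparison had every correlation over 0.1, so the numbers were not taken as pairs. The causes were not tested.

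Values near 0 changed sign. Against control, Mlxipl in MYO5BΔIEC was -0.063 with the trend on gene length removed. Without 1 culture, the log2 fold changes were as follows: Scd1 in MYO5BΔIEC -0.36 to 0.23, Mlxipl in MYO5BΔIEC -0.028 to 0.18 and in MYO5B(G519R) -0.16 to 0.080. For treated against untreated MYO5BΔIEC, Fasn ran from -0.24 to 0.023 and Scd2 from -0.35 to 0.047. Between the genotypes, Fasn ran from -0.0078 to 0.22, Acacb from -0.45 to 0.17, Elovl6 from -0.12 to 0.020 and Scd1 from -0.43 to 0.16. Depth limits Acacb, with at most 217 reads in a culture.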
